A study of Homo sapiens with 19 samples.

Results

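The elements described here are the DNA inserts whose names begin with TRE5SP, other than those named TRE5SPNN, in a reporter screen run in K-562, a human leukaemia cell line in long use. They were chosen by a rule on names, with earlier results of these data known, in 5 subclasses given by the letters after TRE5. The subclasses are SPON with 41 oligos from 25 loci, SPNL with 28 from 15, SPNR with 20 from 12, SPOL with 6 from 3 and SPOR with 2 from 1. That makes 97 of the 3196 different element names in the 6 tables analysed, at 56 loci, of which 41 are present in both orientations (.fwd and .rev). Both orientations of a locus share their sequence and are not independent of each other. What the subclass letters stand for is not stated, and element sequences and genome positions were not analysed here.

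The assay, QUASARR-seq, reads how far 1 insert acts as a promoter and as an enhancer from the same plasmid of the design pDEST-QUASARR-luc-gfp. RNA over DNA of the barcode paBC was taken as the promoter read-out and that of the barcode eaBC as the enhancer read-out. The plasmid pool carried 3 minimal promoters, labelled pMYC, pGAPDH and pAPOBEC3F. DNA of K-562 cells given the same plasmid pool served as the reference for RNA. Each read-out had 2 RNA and 2 DNA libraries, 8 in all, and the tables of the 3 minimal promoters come from the same libraries. Per the labels, 20 µg of plasmid went into each electroporation, 5 electroporations were pooled into a technical replicate and 2 technical replicates made a biological one, with harvest after 6 h. The labels do not say which kind replicates 1 and 2 are, so p-values measure only the spread between these libraries.

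A promoter is the DNA at which transcription starts, and its activity usually depends on its orientation. An enhancer raises transcription from a separate promoter and is classically described as working in either orientation. Many regulatory elements do both to some degree, and a minimal promoter alone gives little transcription, so that it can report on what the neighbouring insert adds. GAPDH encodes an enzyme of glycolysis that is expressed in nearly all cells, MYC a transcription factor of cell growth and APOBEC3F a cytidine deaminase of antiviral defence.

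All values are log2 ratios of RNA over DNA, computed for each replicate and given as mean ± SD (n = 2). The ratio of 0 is set by the authors' scaling of each table, and levels were not tested between tables, which were scaled separately. An element is called higher or lower when limma, fitted to all elements of a table, gave a Benjamini-Hochberg adjusted p under 0.05 for RNA against DNA. A call lost without either replicate was lost with each of them left out in turn. The median of all elements was 0.24 in the pMYC promoter table, 0.24 in the pAPOBEC3F promoter table and 0.19 in the pMYC enhancer table, and between -0.07 and 0.09 in the others. Promoter tables held 1679872 to 10167588 RNA reads per library, and enhancer tables held 200722 to 3142007. The elements described here took 0.261% to 0.702% of the reads of a library. Under pMYC, 44 of them were listed (42 in the enhancer table, of which 41 were tested). Under pGAPDH there were 81, of which 80 were tested in the promoter and 79 in the enhancer read-out. Under pAPOBEC3F all 39 listed were tested. Only 12 were listed under all 3 minimal promoters, and 42 under a single one, of which 31 were under pGAPDH.

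In the promoter read-out the TRE5SP elements lay low against all elements, though not alone among the TRE5 classes. Under pGAPDH, 57 of 80 were called lower and 13 higher, against 45.7% of all elements lower and 35.1% higher. Their median ratio was -0.60, a 1.52-fold lower RNA over DNA, with a range from -1.57 to 1.60, and 49 of the 80 lay at or below the 25th percentile of the table. Under pAPOBEC3F, 24 of 39 were lower and 9 higher, against 28.8% and 49.9% of all elements, with a median of -0.64. Under pMYC, 23 of 44 were lower and 15 higher, against 26.0% and 50.8%, with a median of -0.32. Centred on the median of all elements, the pMYC split became 27 lower and 11 higher. Centred on the elements named by a number alone, it was 19 lower and 15 higher, with a median of -0.10. They also had fewer DNA reads than most elements. The median DNA reads over both libraries were 892.5 under pMYC, 598 under pGAPDH and 565 under pAPOBEC3F, against 2041, 2777 and 1855 over all elements. The part of this lower depth in the counts was not tested. Other TRE5 classes lay low too. Promoter medians under pMYC, pGAPDH and pAPOBEC3F were -0.19, -0.61 and -0.24 for TRE5SPNN and -0.37, -0.45 and -0.43 for TRE5NGCC. Those of TRE5GCLR, TRE5GCCC and TRE5GCNC lay above the median of all elements in each promoter table.

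The enhancer read-out held fewer calls. Under pGAPDH, 22 of 79 elements were lower and 6 higher, against 10.5% of all elements lower and 16.4% higher, and the median was -0.21. The lower count was 13 without RNA replicate 1 and 11 without RNA replicate 2. Under pMYC, 12 of 41 were higher and 9 lower, against 34.4% and 4.72%. The pMYC median of 0.03 became -0.16 when centred on all elements. Without DNA replicate 1 the pMYC counts were 6 higher and 2 lower, and without DNA replicate 2 they were 7 and 3. Under pAPOBEC3F, 2 of 39 were higher and 5 lower, against 23.6% and 4.19%, with a median of -0.31. That table is the shallowest, with a median of 11 RNA reads per member in each library, against 49 and 53 over all elements listed. The counts changed with each library left out. They were 0 higher and 0 lower without DNA replicate 1, 0 and 1 without DNA replicate 2, 6 and 18 without RNA replicate 1, and 6 and 15 without RNA replicate 2.

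SPON, the largest subclass, had medians below 0 in every promoter table, and a few loci stood above the rest. Under pGAPDH, 28 of 37 SPON elements were lower and 2 higher, against 45.7% and 35.1% of all elements, with a median of -0.65. Under pAPOBEC3F 12 of 15 were lower and 1 higher, against 28.8% and 49.9%, with a median of -0.71. Under pMYC 8 of 16 were lower and 4 higher, against 26.0% and 50.8%, with a median of -0.24. Centred on the elements named by a number alone, the pMYC SPON median was -0.02. In the pGAPDH promoter table the lowest were TRE5SPON0007.fwd at -1.41 ± 0.23 and TRE5SPON0006.rev at -1.40. The lowest in the pAPOBEC3F promoter table was TRE5SPON0032.rev at -1.85 ± 0.01. Its enhancer ratio under the same minimal promoter was 0.01 ± 0.28 and was not called.

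All 6 higher calls in the pGAPDH enhancer table came from both orientations of 3 loci, TRE5SPON0001, TRE5SPON0030 and TRE5SPOL0005. TRE5SPON0001.fwd gave 0.51 and 0.45 in its replicates and TRE5SPON0001.rev gave 0.82 and 0.69. TRE5SPON0030.fwd gave 0.59 and 0.56 and TRE5SPON0030.rev 0.88 and 0.67. TRE5SPOL0005.fwd gave 0.37 and 0.33 and TRE5SPOL0005.rev 0.54 and 0.63. All 6 elements were thus above 0 in both replicates, by 1.27-fold to 1.71-fold on average. Of the 6, TRE5SPOL0005.fwd lost its call (limma adjusted p = 0.0225) without DNA replicate 2 and without either RNA replicate, and the others kept theirs with any 1 library left out.

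The pMYC enhancer table held TRE5SPON0001 in both orientations and TRE5SPON0030 in 1. TRE5SPON0001.fwd stood there at 1.34 ± 0.29 and TRE5SPON0001.rev at 1.32 ± 0.13, and both were called higher. TRE5SPON0030.fwd stood at 1.49 ± 0.04 (limma adjusted p = 0.0036), the highest SPON value in that table. In the promoter read-out the same loci behaved less evenly. TRE5SPON0001.fwd was 4.03-fold higher under pMYC, at 2.13 and 1.89 in its replicates, from 240 and 229 RNA reads against 212 and 218 DNA reads. TRE5SPON0001.rev was at 0.62 ± 0.30 there, and its call was lost without either DNA replicate and when centred on all elements. Under pGAPDH the promoter ratios of the locus were 0.13 ± 0.03 and 0.15 ± 0.0047, and only the former was called, a call lost without either DNA replicate and without RNA replicate 1. TRE5SPON0030.rev was at 0.75 ± 0.17 as a pGAPDH promoter and TRE5SPON0030.fwd, at -0.07 ± 0.08, was not called.

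SPNL elements were split between high and low promoters under pMYC and mostly low under pGAPDH. Under pMYC 8 of 18 were higher and 8 lower, against 50.8% and 26.0% of all elements. The pMYC median of -0.04 became 0.18 when centred on the elements named by a number alone. Under pGAPDH 3 of 18 were higher and 13 lower, against 35.1% and 45.7%, with a median of -0.57. Under pAPOBEC3F 4 of 11 were higher and 5 lower, against 49.9% and 28.8%, with a median of -0.34. The highest was TRE5SPNL0026.rev, at 4.04 and 3.94 in the pMYC promoter replicates, a 15.9-fold higher RNA over DNA (limma adjusted p = 1.87e-06). It was read 1844 and 1858 times in RNA and 432 and 427 times in DNA. The same element was at 2.13 ± 0.18 as a pMYC enhancer and at 1.04 ± 0.15 as a pGAPDH promoter, both called higher. As a pGAPDH enhancer it was at 0.02 ± 0.07, which was not called. TRE5SPNL0001.rev followed under pMYC with 2.40 ± 0.10 as a promoter and 1.79 ± 0.58 as an enhancer. The enhancer value rests on 49 and 28 RNA reads, and its call was lost without either DNA replicate.

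As a promoter the TRE5SPNL0017 locus was low in both orientations. Under pAPOBEC3F TRE5SPNL0017.fwd gave -2.41 and -2.49, a 5.46-fold lower promoter ratio from 8 RNA reads in each library against 262 and 259 DNA reads. TRE5SPNL0017.rev gave -1.56 ± 0.32 there, -1.27 ± 0.57 as a pMYC promoter and -0.98 ± 0.24 as a pGAPDH promoter, all called lower. As a pMYC promoter TRE5SPNL0017.fwd was also called lower, at -1.16 ± 0.70, a call lost without DNA replicate 2. The enhancer values of the locus were less even. TRE5SPNL0017.rev was at 0.04 ± 0.33 under pGAPDH and TRE5SPNL0017.fwd at -0.15 ± 0.91 under pAPOBEC3F, and neither was called. TRE5SPNL0017.rev was called lower under pAPOBEC3F, at -1.02 ± 0.28 from 3 RNA reads in each library. That call was lost without DNA replicate 1, with 2 reads added, with the variance trend chosen after seeing the data and in the authors' deposited table. Under pMYC the enhancer ratios were -0.63 ± 0.34 forward and -0.67 ± 0.39 reverse, both called lower. The forward call was lost without either DNA replicate and the reverse call without DNA replicate 1 and without either RNA replicate. In the enhancer read-out SPNL had no higher call among 17 elements under pGAPDH. limma placed none there at an unadjusted p under 0.05 either, the authors' deposited table had 0, and 7 were lower. Of all elements there, 16.4% were higher and 10.5% lower. The lowest SPNL element, TRE5SPNL0005.rev, was at -0.90 and -0.93 in the pGAPDH enhancer replicates. Under pMYC 5 of 16 SPNL enhancers were higher and 2 lower, against 34.4% and 4.72% of all elements. Their median of 0.16 became -0.04 when centred on all elements. Under pAPOBEC3F 1 of 11 was higher and 1 lower, against 23.6% and 4.19%. The higher one, TRE5SPNL0008.fwd at 1.14 ± 0.04, came from 15 and 19 RNA reads and lost its call without either DNA replicate.

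SPNR held the strongest promoter of the set and otherwise mostly low values. Under pGAPDH 14 of 18 were lower and 4 higher, against 45.7% and 35.1% of all elements. The median was -0.94, the lowest of the 3 larger subclasses in that table. Under pMYC 4 of 6 were lower and 2 higher, against 26.0% and 50.8%. Under pAPOBEC3F 5 of 9 were lower and 3 higher, against 28.8% and 49.9%. TRE5SPNR0019.rev gave 5.74 and 5.71 in the pAPOBEC3F promoter replicates, from 3664 and 3850 RNA reads against 400 and 398 DNA reads. That is a 52.8-fold higher ratio, at the 99.9th percentile of the table. As a pGAPDH promoter it gave 1.64 and 1.56, also called higher (limma adjusted p = 1.47e-05). Its enhancer ratios lay below 0 in every replicate, at -0.63 and -0.29 under pGAPDH and at -0.11 and -1.11 under pAPOBEC3F. The pGAPDH enhancer value was called lower (limma adjusted p = 0.0318), a call lost without either RNA replicate, and the pAPOBEC3F one was not called.

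TRE5SPNR0022 was the other high SPNR locus, as a promoter in both orientations. TRE5SPNR0022.fwd was at 2.79 and 2.68 under pAPOBEC3F, 6.65-fold higher, and TRE5SPNR0022.rev at 1.34 ± 0.43. Under pGAPDH the same oligos were at 0.22 ± 0.04 and 0.32 ± 0.08, and under pMYC TRE5SPNR0022.rev was at 0.97 ± 0.04. All 5 values were called higher, and that of TRE5SPNR0022.fwd under pGAPDH was lost without DNA replicate 2 and without RNA replicate 1. At the low end, TRE5SPNR0005.rev was at -2.08 ± 0.07 as a pAPOBEC3F promoter, from 6 and 8 RNA reads, and TRE5SPNR0001.rev at -1.57 as a pGAPDH promoter. Among pGAPDH enhancers none of the 18 SPNR elements was called higher and 3 were called lower, against 16.4% and 10.5% of all elements. At an unadjusted p under 0.05 limma gave 0 and 6, and the authors' deposited table had 0 and 2. Under pAPOBEC3F 0 of 9 SPNR enhancers were higher and 1 lower in limma, against 1 and 5 at an unadjusted p under 0.05 and 1 and 1 in the authors' deposited table.

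The small subclasses held a low element, a high locus and a locus that differed by orientation. TRE5SPOL0002.fwd was below 0 in all 6 tables. Its promoter ratios were -1.19 ± 0.30 under pMYC, -0.95 and -1.06 in the replicates under pGAPDH and -0.98 ± 0.09 under pAPOBEC3F, all called lower. The enhancer ratios were -0.80 ± 0.94, -0.74 ± 0.17 and -0.93 ± 0.20, of which the last pair was called lower and the pMYC value was not. In the authors' deposited table the pMYC enhancer value was lower too, at -0.82 (limma adjusted p = 0.00057). The pAPOBEC3F enhancer call was lost without either DNA replicate. TRE5SPOL0005, listed under pGAPDH only, was higher as a promoter in both orientations, at 0.48 ± 0.06 and 0.44 ± 0.03, as it was in the enhancer read-out. TRE5SPOL0001.fwd was at 0.35 ± 0.03 as a pGAPDH promoter and at 0.34 ± 0.06 as a pMYC promoter, both called higher. The pMYC call was lost without DNA replicate 1 and when centred on all elements. Its reverse, TRE5SPOL0001.rev, was at -0.30 ± 0.29 as a pGAPDH promoter and was not called.

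TRE5SPOR0001, the only SPOR locus, was higher in reverse and lower in forward orientation. As a pGAPDH promoter TRE5SPOR0001.rev gave 0.65 and 0.71 and TRE5SPOR0001.fwd -0.71 and -0.83. Under pAPOBEC3F the promoter ratios were 0.40 ± 0.02 and -1.21 ± 0.30, and the enhancer ratios 1.16 ± 0.14 and -0.81 ± 0.32, all called. The enhancer values rest on 12 and 11 RNA reads for the reverse and on 5 and 6 for the forward oligo, and both calls were lost without either DNA replicate. The forward enhancer call was also lost with the replicate number as a block, with 2 reads added, with the variance trend and in the authors' deposited table. The higher pAPOBEC3F promoter call was lost without DNA replicate 1, when centred on all elements, with the variance trend and in the authors' deposited table. As pGAPDH enhancers the orientations were at 0.20 ± 0.03 and -0.23 ± 0.07, and neither was called.

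Whether the orientation of an insert matters was tested at each locus with both orientations as the forward minus the reverse ratio, in limma over all loci of a table. In the promoter read-out 9 of 9 loci differed under pAPOBEC3F, 19 of 30 under pGAPDH and 7 of 13 under pMYC, against 52.4%, 68.6% and 57.5% of all loci. Without either DNA replicate the counts were 5 under pAPOBEC3F and 4 under pMYC. The median absolute difference was 1.29 under pAPOBEC3F and 0.85 under pMYC, against 0.41 and 0.39 over all loci, and 0.37 against 0.32 under pGAPDH. No orientation dominated, since 5, 9 and 5 of the called loci under pAPOBEC3F, pGAPDH and pMYC were higher in forward orientation.

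TRE5SPNR0019 had the largest difference. Under pAPOBEC3F its forward oligo was at -0.99 ± 0.44, so that the orientations differed by 6.71 on the log2 scale, 105.0-fold (limma adjusted p = 0.000438). Under pGAPDH the forward oligo was at -1.49 ± 0.38 and the difference was 8.54-fold (limma adjusted p = 0.000321). TRE5SPNR0009 followed under pGAPDH with 0.62 ± 0.12 forward and -1.44 ± 0.16 reverse. Loci with 1 orientation called higher and the other lower numbered 4 of 13 under pMYC, 4 of 30 under pGAPDH and 3 of 9 under pAPOBEC3F, against 6.26%, 14.3% and 3.36% of all loci. Without DNA replicate 1 the count under pAPOBEC3F was 0, and without DNA replicate 2 it was 2. Under pMYC it was 2 without DNA replicate 2 and 2 when centred on the elements named by a number alone. The 4 under pMYC were all SPNL. TRE5SPNL0001 was at -0.34 ± 0.01 forward and 2.40 ± 0.10 reverse, while TRE5SPNL0011 was at 1.98 ± 0.39 forward and -0.71 ± 0.11 reverse. TRE5SPNL0032 was at 1.23 ± 0.12 forward and -0.46 ± 0.19 reverse, and TRE5SPNL0028 at 0.43 ± 0.04 and -0.79 ± 0.02. The reverse call of TRE5SPNL0032 was lost without either DNA replicate and when centred on the elements named by a number alone. TRE5SPNL0001 also no longer had opposite calls without DNA replicate 2 and with that centring. Across the member loci the forward and reverse promoter ratios had Pearson's r of 0.21 (Spearman's rho 0.47, n = 13) under pMYC, 0.12 (0.27, n = 30) under pGAPDH and 0.21 (0.43, n = 9) under pAPOBEC3F. Over all loci of the same tables r was 0.82, 0.62 and 0.86. Both orientations were read in the same libraries, and no p is given because loci are not replicates. Within SPON alone r was 0.68 (rho 0.75, n = 14) under pGAPDH, where 8 of 14 SPON loci were lower in both orientations and none had opposite calls. Within SPNL r was -0.24 (rho -0.14, n = 7) under pMYC and 0.09 (rho 0.20, n = 6) under pGAPDH, and within SPNR it was -0.31 (rho -0.32, n = 7) under pGAPDH. The TRE5SPNN loci, which are not among the elements described, had r of 0.11 (rho 0.26, n = 8) under pMYC, 0.33 (rho 0.18, n = 17) under pGAPDH and -0.26 (rho -0.12, n = 13) under pAPOBEC3F.

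In the enhancer read-out few orientation differences passed the test. On simulated data it recovered 84% of log2 differences of 0.5 under pGAPDH, 30% under pMYC and 6% under pAPOBEC3F, so small differences could be missed. The simulation changed 50 loci by 0.5, 50 by 1 and 100 by 2. That is far more than were called in these enhancer tables, so the rates may be too high for them. Under pGAPDH 0 of 30 and under pMYC 0 of 11 member loci were called by limma, against 0.350% and 3.13% of all loci, with 7 and 2 at an unadjusted p under 0.05. Without RNA replicate 1 the pMYC count was 2, and without RNA replicate 2 it was 1. Under pAPOBEC3F the orientations of 1 of 9 loci differed, against 2.36%. That locus was TRE5SPOR0001, by 1.98 on the log2 scale (limma adjusted p = 0.0444). The pAPOBEC3F count was 0 without either DNA replicate, 5 without RNA replicate 1 and 4 without RNA replicate 2. With the replicate number as a block, the pAPOBEC3F count was 0 and the pGAPDH count was no longer 0, as given further below. The median absolute differences of 0.20 under pGAPDH, 0.39 under pMYC and 0.57 under pAPOBEC3F stand beside 0.15, 0.24 and 0.26 over all loci. Forward and reverse enhancer ratios had r of 0.62 (rho 0.45, n = 30) under pGAPDH, 0.51 (rho 0.45, n = 11) under pMYC and 0.30 (rho 0.10, n = 9) under pAPOBEC3F, against 0.69, 0.70 and 0.67 over all loci.

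Promoter and enhancer ratios of the same elements were then set side by side. Across members r was 0.84 (rho 0.83, n = 41) under pMYC, 0.48 (rho 0.48, n = 79) under pGAPDH and 0.40 (rho 0.53, n = 39) under pAPOBEC3F, against 0.84, 0.62 and 0.76 over all elements. Both barcodes sit on the same plasmids and were read from cells given the same plasmid pool. Their DNA reads had r of 0.88 to 0.97 across members. Replicates agreed less in the enhancer read-out. Replicate ratios of members had r of 0.70 under pMYC, 0.57 under pGAPDH and 0.38 under pAPOBEC3F there, against 0.95, 0.94 and 0.97 in the promoter read-out. Over all elements the replicate r was 0.86, 0.80 and 0.80 in the enhancer tables and 0.98 in each promoter table. Members thus had a lower replicate r than all elements as enhancers, and so had TRE5SPNN, at 0.83, 0.32 and 0.47. The promoter and enhancer r of TRE5SPNN was 0.67, 0.34 and 0.48, in the same order. The part of the replicate agreement in the promoter and enhancer r of members was not tested. Under pGAPDH 20 of 79 elements were lower in both read-outs, 35.7% of the 56 lower promoters and 90.9% of the 22 lower enhancers. Of all elements there, 9.25% were lower in both, which was 20.3% of the lower promoters and 87.5% of the lower enhancers. Under pMYC 8 of 41 were lower in both, 38.1% of 21 and 88.9% of 9. Of all elements there, 3.99% were lower in both, 15.4% of the lower promoters and 84.3% of the lower enhancers. Under pAPOBEC3F 5 of 39 were lower in both, 20.8% of the 24 lower promoters and 5 of the 5 lower enhancers. Of all elements there, 3.12% were lower in both, 10.8% of the lower promoters and 74.3% of the lower enhancers. Higher in both were 11 elements under pMYC, 4 under pGAPDH and 2 under pAPOBEC3F, against 32.8%, 13.7% and 23.0% of all elements.

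Some elements ranked apart in the read-outs. TRE5SPNR0019.rev lay at the 97.9th percentile of pGAPDH promoters and the 3.29th of pGAPDH enhancers. TRE5SPNR0021.rev and TRE5SPNR0013.rev showed the opposite order. As pGAPDH promoters both were called lower. TRE5SPNR0021.rev gave -0.98 and -1.02 in its promoter replicates and TRE5SPNR0013.rev -1.26 ± 0.04. As pGAPDH enhancers they stood at 0.18 ± 0.01 and 0.13 ± 0.24, not called. Under pMYC TRE5SPNL0032.rev was lower as a promoter, at -0.59 and -0.33, and higher as an enhancer, at 0.50 and 0.65. Each of these enhancer and promoter calls of TRE5SPNL0032.rev was lost without either DNA replicate. TRE5SPNL0005.rev was higher as a pMYC promoter, at 0.80 ± 0.20, and at 0.05 ± 0.05 as a pMYC enhancer, which was not called.

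The 3 minimal promoters share their libraries and their values are therefore given side by side. TRE5SPNL0008.fwd was higher as a promoter under pMYC, at 1.43 and 1.28, and under pAPOBEC3F, at 1.88 and 2.00, and lower under pGAPDH, at -0.65 and -0.50. TRE5SPNL0028.fwd followed the same order, with 0.43 ± 0.04 under pMYC, 1.04 ± 0.08 under pAPOBEC3F and -1.03 ± 0.04 under pGAPDH. TRE5SPNL0005.rev, not listed under pAPOBEC3F, was higher under pMYC at 0.80 ± 0.20 and lower under pGAPDH at -0.51 ± 0.17. TRE5SPNL0004.rev was higher under pMYC at 0.29 ± 0.01 and lower under pGAPDH at -0.24 ± 0.0035. The pMYC call of TRE5SPNL0004.rev was lost without either DNA replicate and when centred on all elements. In the promoter read-out 4 of the 31 members tested under both pMYC and pGAPDH had opposite calls. Under pGAPDH and pAPOBEC3F 2 of 30 did, and under pMYC and pAPOBEC3F 0 of 17. In the enhancer read-out no member did, among 29, 30 and 16 shared by the same pairs. The share of all elements with opposite calls is not given here, so these counts have no background. Of the 11 elements tested in all 6 tables, none was called in the same direction in all of them by the fit used here. By the authors' deposited calls TRE5SPOL0002.fwd was lower in all 6.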

How the data were processed

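Deposited tables of 6 kinds were analysed, 1 per minimal promoter and read-out, from 8 libraries of K-562 cells sequenced with 150 bp reads. The signal values that the authors deposited cover replicates 1 and 2 of RNA and of DNA, with no unit or scaling in the headers. In every column 100% of the signals were whole multiples of a single step (tolerance 0.02). Taking that step as 1 read gave the read numbers, which are thus inferred. These are PCR reads without molecular identifiers, and depth covers counting error only. The log2 fold changes and p-values that the authors deposited from a limma fit, per the file headers, decided which elements were tested and served as an alternative. Score columns (a moderated t and log odds), deposited by the authors, were not used. Per the submitters' processing notes fastp, edgeR, limma and hg38 were used; the aligner and barcode matching are not given in the sources used here.

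Ratios were computed as log2(RNA reads + 0.5) minus log2(DNA reads + 0.5), at the scale of the columns. limma 3.58.1 (R 4.3.3) was fitted to log2 signals of all tested elements of a table, without a replicate block, and to forward minus reverse values of all loci, with Benjamini-Hochberg adjustment over the table and calls at an adjusted p under 0.05. A percentile rank is within all tested elements of a table. The test was checked on simulated data with known changes. At a log2 change of 0.5 it recovered 18% to 100% of RNA over DNA changes and 6% to 100% of orientation differences. Both were lowest in the pAPOBEC3F enhancer table. At a log2 change of 2 it recovered 95% to 100%. False calls made up 2.17% to 6.57% of calls. Summaries used Python 3.11.15 with pandas 2.3.3.

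The members and lists were chosen with earlier results of these data known. Named are, per table and subclass, the 3 highest and 2 lowest called members (all members where 10 or fewer were measured), members called alike in all 6 tables, the largest rank differences between read-outs (3 per minimal promoter either way) and minimal promoters (2 per pair either way), the 3 called loci per table with the largest orientation difference, and members with opposite calls under different minimal promoters. The 6 higher pGAPDH enhancers and the 4 loci with opposite calls under pMYC were singled out after their values were seen. Elements listed without a test by the authors were left out. These were TRE5SPNL0001.rev under pGAPDH in both read-outs, and TRE5SPNL0020.rev under pGAPDH and TRE5SPNL0031.rev under pMYC in the enhancer read-out. Alternatives were a replicate block, 1 library left out, other zero points, a stricter threshold, a minimum fold, 2 reads added, a minimum of 20 reads per DNA library, single replicates, the authors' calls and, chosen after seeing the data, a variance trend.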

Additional observations from a re-analysis of the deposited data

Results flagged for a closer look

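A total of 8 contrasts stood out because an element was called higher in 1 table and lower in another of the same minimal promoter or read-out. The differences between tables were not tested, since the tables are scaled separately. TRE5SPNL0032.rev was at -0.46 as a pMYC promoter and at 0.57 as a pMYC enhancer. TRE5SPNR0019.rev was at 1.60 as a pGAPDH promoter and at -0.46 as a pGAPDH enhancer. Between the pMYC and pGAPDH promoter tables, TRE5SPNL0004.rev stood at 0.29 and -0.24, TRE5SPNL0005.rev at 0.80 and -0.51, TRE5SPNL0008.fwd at 1.35 and -0.58, and TRE5SPNL0028.fwd at 0.43 and -1.03. Between the pGAPDH and pAPOBEC3F promoter tables, TRE5SPNL0008.fwd stood at -0.58 and 1.94, and TRE5SPNL0028.fwd at -1.03 and 1.04. Each kept opposite signs when the tables were centred on all elements or on the elements named by a number alone.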

How the results depend on the processing

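No value of a named element changed sign with a call under any alternative run. Of 1881 such values, 1609 kept their call and direction and 272 lost the call. With the replicate number as a block, the lower pAPOBEC3F enhancers numbered 2, the pAPOBEC3F enhancer loci differing by orientation 0 and those under pGAPDH 3, and other counts stayed within 1.5 times. Deviations of RNA and DNA of the same number had r of -0.07 to 0.03 across elements. Little deviation was thus shared, which cannot show whether libraries of the same number came from the same cells. The ratios of each replicate do set RNA against DNA of the same number. A minimum log2 difference of 1 left 6 higher and 6 lower pMYC promoters, 2 and 20 pGAPDH promoters, 12 lower pAPOBEC3F promoters, 5 higher and 0 lower pMYC enhancers, 0 and 0 pGAPDH enhancers, 1 lower pAPOBEC3F enhancer and 3 pGAPDH promoter loci differing by orientation. An adjusted p under 0.01 left 1 lower pMYC, 6 lower pGAPDH and 0 lower pAPOBEC3F enhancers, and 0 pAPOBEC3F enhancer loci. Centred on all elements, the median ratio was -0.56 for pMYC, -0.53 for pGAPDH and -0.87 for pAPOBEC3F promoters and -0.16 for pMYC enhancers. Centred on the elements named by a number alone, it was -0.10 and -0.52 for pMYC and pGAPDH promoters. With 2 reads added, the pMYC enhancer median was 0.089, 1 pMYC enhancer locus differed by orientation and 2 pAPOBEC3F enhancers were lower. With at least 20 DNA reads, 1 pMYC enhancer locus differed. The authors' calls gave 4 higher pAPOBEC3F enhancers, and the variance trend, chosen after seeing the data, 3 lower ones. The cause of these changes was not tested beyond the alternatives' own construction.

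With 1 library left out, the spread comes only from the arm that keeps both libraries. Higher and lower counts then ranged from 11 to 16 and 17 to 26 for pMYC promoters, 11 to 13 and 55 to 58 for pGAPDH promoters and 8 to 11 and 19 to 25 for pAPOBEC3F promoters. For enhancers they ranged from 6 to 13 and 2 to 11 under pMYC, 5 to 8 and 11 to 25 under pGAPDH, and 0 to 6 and 0 to 18 under pAPOBEC3F. Loci differing by orientation ranged from 4 to 10, 17 to 18 and 5 to 9 in the promoter and 0 to 2, 0 to 0 and 0 to 5 in the enhancer read-out, in the same order. Single replicates gave median ratios of -0.35 to -0.30, -0.66 to -0.56 and -0.68 to -0.44 for promoters and 0.015 to 0.070, -0.22 to -0.15 and -0.40 to -0.13 for enhancers. The planned edgeR test on recovered reads was not run, because most columns missed the stricter check of whole reads that it requires. Orientation differences have no zero point and no deposited counterpart, so those alternatives give no value there.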

Other observations

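TRE5SPNL0001.rev, called higher under pMYC in both read-outs, was listed by the authors without a test under pGAPDH. Its pGAPDH promoter ratios were -2.60 and -1.48, from 11 and 24 RNA reads against 45 and 40 DNA reads, and its pGAPDH enhancer ratio was -0.24 ± 0.31. The thinnest tested value was that of TRE5SPNL0016.rev as a pAPOBEC3F enhancer, with 1 and 0 RNA reads against 17 and 19 DNA reads. It was not called by limma, while the authors' deposited table gives it -2.16 with an adjusted p of 0.0062, and it was chosen here after its reads were seen. The subclass TRE5SPNN, which shares the leading letters and was not part of the elements described, had promoter medians of -0.19 under pMYC, -0.61 under pGAPDH and -0.24 under pAPOBEC3F, and enhancer medians of -0.04, -0.26 and -0.27.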
